A study of Mus musculus with 4 samples.

Results

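Ribosomal protein genes were measured in 4 single-cell RNA libraries of mouse thymic cells sorted for a fluorescent reporter. The members are the gene symbols of the deposited gene list that begin with Rpl or Rps and a number, plus Rpsa, Rplp0, Rplp1 and Rplp2. This rule matched 89 of 55418 gene entries, of which 77 are canonical ribosomal protein genes, all annotated as protein coding, and 12 are paralogs or retrogenes, 5 of them annotated as processed pseudogenes (Rpl3l, Rpl6l, Rpl7l1, Rpl10l, Rpl22l1, Rpl32l, Rpl39l, Rps3a2, Rps3a3, Rps4l, Rps12l1 and Rps27l), which were kept apart. The rule used no measured value.

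The study asked how heterogeneous the macrophages of the thymus are. MAFIA mice carry the transgene Csf1r-EGFP-NGFR/FKBP1A/TNFRSF6, in which the promoter of the CSF1 receptor gene drives EGFP and an inducible death receptor, and were 5 weeks old. Cd11cYFP mice carry Itgax-Venus, in which the promoter of the CD11c gene drives the YFP variant Venus, and were 9 weeks old. All mice were C57BL/6, and each reporter has 2 libraries, made with the 10x Genomics 3' v3 chemistry from EGFP+ or YFP+ cells. Both promoters are active in dendritic cells and other leukocytes as well as in macrophages, so the sort holds several cell types. Reporter, age and sex go together and cannot be told apart. The study's methods name 1 female MAFIA mouse and 2 male Cd11cYFP mice, and do not say which of the 2 MAFIA libraries is meant. With library fitted as a block, p-values measure only how class differences vary between libraries. That spread may be technical.

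The ribosome is built from a small and a large subunit, each made of ribosomal RNA and of proteins that are present in 1 copy each, apart from the stalk proteins. Cells that grow or divide make many ribosomes. In mammals the ribosomal protein mRNAs share a pyrimidine-rich start, the 5' terminal oligopyrimidine tract, through which their translation follows growth signals. Single-cell RNA libraries are rich in these short, abundant mRNAs.

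Barcodes in the 4 libraries numbered 5500 to 9737 and UMIs (unique molecular identifiers, counted RNA molecules) 26876378 to 185882793. MAFIA replicate 1 had a median of 3979 UMIs per kept cell, against 15734 to 17492 in the other 3, and the middle 80% of its cells spanned a canonical share of only 20.4% to 25.4%, against 9.34% to 28.8%, 11.2% to 31.4% and 12.2% to 30.1%. It enters as a whole library only. Any 2 libraries shared 10 to 25 barcodes. Cells of the other 3 libraries were clustered without any ribosomal protein gene, and 20717 of 23549 (88.0%) fell in clusters whose marker genes gave a name. The names are rebuilt here by a scoring rule chosen with the clusters already in view, and doublets were left in. In every named class each marker of the class's own list had UMIs in every library. Lists of other classes were often as complete, such as 10 of 10 thymocyte markers in Timd4+ macrophage-like cells. Detection alone therefore cannot tell whether a name is right. Of the clusters joined in the Xcr1+ class, 2 were led by proliferation and histone genes.

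Short windows around the listed transcription start are shown for some of the genes the comparisons turn on. The reason is that the oligopyrimidine tract is the feature this gene family is known to share. The printed windows hold CTTTC or CTTCC more often than the family does. Those of Rplp0, Rpl4, Rpl5, Rpl10, Rpl10a, Rpl11, Rps2 and Rpsa hold neither and are not printed. Of the 77 canonical genes, 57 matched the RefSeq promoter table (build GRCm38.p6). Each window holds 15 bases before and 15 bases from the listed start, 5′ to 3′ on the gene's strand, with the letters CTTTC or CTTCC in capitals.
Rplp2 (chr7:141447636-141447665, plus strand): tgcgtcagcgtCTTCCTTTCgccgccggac
Rps27 (chr3:90213634-90213663, minus strand): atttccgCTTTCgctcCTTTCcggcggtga
Rpl18 (chr7:45718056-45718085, plus strand): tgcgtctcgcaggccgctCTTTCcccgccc
Rps26 (chr10:128626492-128626521, minus strand): gtcgggcaagccgccggatcctCTTTCgag
Rps24 (chr14:24490663-24490692, plus strand): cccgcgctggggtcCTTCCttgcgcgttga
Rpl31 (chr1:39367836-39367865, plus strand): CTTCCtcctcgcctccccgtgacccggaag
Rps19 (chr7:24884577-24884606, plus strand): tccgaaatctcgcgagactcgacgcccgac
Rpl14 (chr9:120571502-120571531, plus strand): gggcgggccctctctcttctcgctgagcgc

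CTTTC stood on the sense strand of this window in 15 of the 57 (26.3%), CTTCC in 11 (19.3%), and at least 1 of them in 22 (38.6%). Over all 27025 promoters of the table the shares were 3.97%, 6.8% and 10.4%. Among 69 matched genes for mitochondrial ribosomal proteins, CTTTC stood in 2 (2.9%). In Rplp2 the 2 motifs overlap, Rps27 holds CTTTC at 2 places, and Rps19 and Rpl14 hold neither motif in these windows. CCGGAAG, searched on both strands of the whole 300-base promoter, was found in 23 of 57 canonical genes (40.4%), in 25 of 69 mitochondrial ones (36.2%) and in 9.12% of all promoters. These are matches of letters near a listed start.

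Canonical ribosomal protein UMIs made up 20.5% of all UMIs of the clustered libraries, and their share differed between classes. B cell-like cells had the highest share, 29.95% ± 0.54 (SD, n = 3 libraries), and thymocyte-like cells 24.8% ± 1.76. Among dendritic cell (DC) classes the share was 21.99% ± 1.91 in Xcr1+ DC-like cells (the type that cross-presents antigen), 21.3% ± 1.33 in Cd209a+ DC-like cells, 19.3% ± 2.01 in plasmacytoid (pDC-like) cells and 17.5% ± 0.61 in mature Ccr7+ DC-like cells. Monocyte-like cells had 17.9% ± 2.24. Cx3cr1+ macrophage-like cells had 12.3% ± 1.01, and Timd4+ macrophage-like cells, which carry the phosphatidylserine receptor TIM4, had 9.28% ± 0.34.

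In every one of the 3 libraries the order began with Timd4+ and then Cx3cr1+ macrophage-like cells and ended with thymocyte-like and B cell-like cells. Timd4+ macrophage-like cells had 9.05%, 9.12% and 9.67%, against 11.2%, 12.5% and 13.1% in Cx3cr1+ macrophage-like cells, in the library order MAFIA replicate 2, Cd11cYFP replicate 1 and Cd11cYFP replicate 2, which holds for all triplets of values that follow. The ranges of these 2 classes did not overlap. From Ccr7+ DC-like up to thymocyte-like cells, classes next to each other in the order of means overlapped in their library values. Monocyte-like cells had 15.3%, 19.3% and 19.1%, and the first of these libraries also held 2067 CPM of 7 neutrophil markers in that class, against 51.1 and 38.2 CPM in the other 2; whether the neutrophil RNA bears on the share was not tested.

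The same order did not hold for the number of ribosomal protein molecules per cell. Timd4+ macrophage-like cells had medians of 1393, 1014 and 865.5 canonical UMIs per cell, again the lowest. Xcr1+ DC-like cells had the most, with 5418, 5963 and 5163, while B cell-like cells had 3723, 3258 and 3397. Cells of these classes differ in total UMIs, with medians of 12005.5 to 18208 in Timd4+ macrophage-like, 17904 to 24910.5 in Cx3cr1+ macrophage-like, 21555 to 26568 in Xcr1+ DC-like and 10582 to 12834 in B cell-like cells. The plot of shares and molecules per cell shows both scales.

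**Figure D1:**
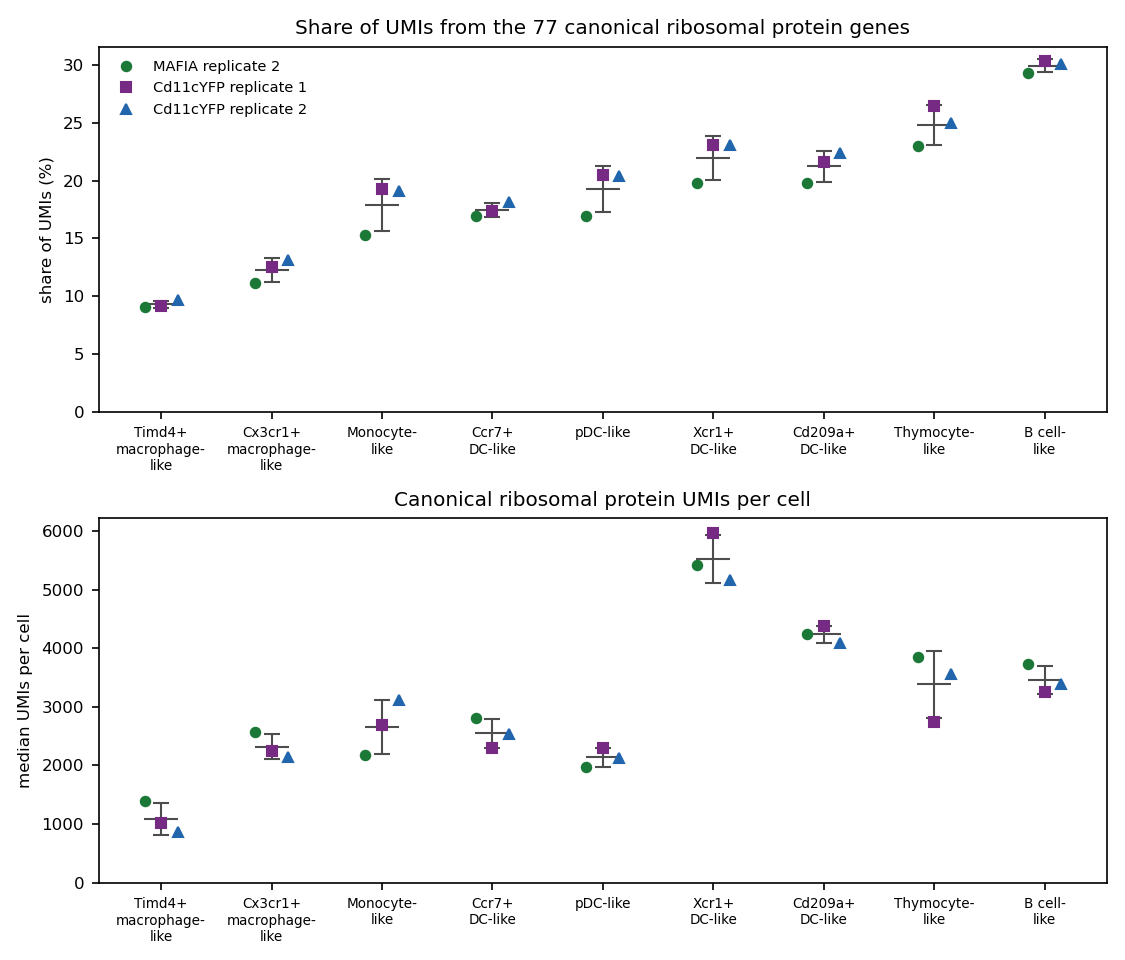
Upper panel, share of UMIs from the 77 canonical ribosomal protein genes (percent) and lower panel, median canonical ribosomal protein UMIs per cell, for 9 cell classes. Points are the 3 libraries, bars the mean and SD; Timd4+ macrophage-like cells are lowest on both scales, B cell-like cells are highest by share (29.3% to 30.4%) and Xcr1+ DC-like cells by UMIs per cell (5163 to 5963).

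The ratio of small-subunit to large-subunit UMIs stayed between 0.816 and 0.931 over the 27 class sums, from 31 Rps and 46 Rpl genes. Its lowest values were those of the macrophage-like classes, 0.819, 0.845 and 0.852 in Timd4+ and 0.816, 0.848 and 0.855 in Cx3cr1+ cells.

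Single genes followed the whole family closely. Levels are given as normalized CPM, UMI counts scaled to a common total (CPM) with edgeR's TMM factors, and since 3' UMIs count molecules they do not scale with transcript length. All 77 canonical genes had their lowest mean level in Timd4+ macrophage-like cells. The highest class was B cell-like for 65, Xcr1+ DC-like for 9, Ccr7+ DC-like for 2 and pDC-like for 1. A gene's highest class mean was 4.01 times its lowest (median of the 77, range 2.35 to 6.05).

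The genes with the highest mean level were Rps29, Rps24 and Rpl41, and those with the lowest were Rps6, Rpl15 and Rpl13a. Rps29, a small-subunit protein, had 2932, 3675 and 3596 normalized CPM in Timd4+ macrophage-like cells, against 6083, 8380.0 and 7862 in B cell-like cells. Rps6, the small-subunit protein phosphorylated by S6 kinase, had 13.9, 25.7 and 24.3 normalized CPM in Timd4+ macrophage-like cells, against 35, 102 and 88.7 in B cell-like cells. In both genes the values of the 2 classes did not overlap. Rps6 was the lowest of the family in all classes, and the Dennd4c gene lies over it on the opposite strand. Another listed gene overlaps 54 of the 77 canonical genes, on the same strand for 35, among them small nucleolar RNA genes such as Snora65 at Rpl12, and on the opposite strand for 37. The deposited list also holds 322 entries named after ribosomal proteins with the pseudogene suffix -ps. Of these, 212 had at least 1 UMI, together 0.175% of the canonical UMIs. That share holds only UMIs assigned to the entries, so it cannot show how reads matching both a gene and its copy were counted. Whether such reads bear on the level of single genes such as Rps6 was not tested. Pseudogenes under other symbols are not in this count.

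Timd4+ macrophage-like cells had less of nearly the whole family than Cx3cr1+ macrophage-like cells, the other macrophage class of the thymus. The Timd4+ marker list summed to 7575, 9629 and 9949 CPM in Timd4+ and 2128, 2189 and 2071 CPM in Cx3cr1+ cells. The Cx3cr1+ list did not separate them, with 3833, 3423 and 2983 CPM in Timd4+ and 3778, 3813 and 3176 CPM in Cx3cr1+ cells. Mertk and Adgre1 stand in both lists. Of the 77 canonical genes, 0 were higher and 74 were lower (edgeR's quasi-likelihood test with Benjamini-Hochberg adjustment below 0.05), where 15.1% and 17.7% of all 15517 genes tested were higher and lower (32.8% in either direction). The count higher was also 0 at an unadjusted p below 0.05 and 0 with DESeq2. The median log2 fold change was -0.58 (range -0.95 to -0.18), against -0.02 over all genes, and 71 of the 77 were lower in every library by plain CPM.

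Among the stalk genes, whose proteins recruit the translation factors, Rplp0 had 1007, 673 and 798 normalized CPM in Timd4+ macrophage-like cells, against 1600.4, 1305 and 1473 in Cx3cr1+ macrophage-like cells (log2 fold change -0.83 ± 0.10 (SE), edgeR adjusted p = 7.64e-07). In what follows a value after log2 is a log2 fold change ± SE. The library ranges did not overlap. Rplp2 differed less, with 1344, 1328 and 1377 in Timd4+ macrophage-like cells, against 1862, 2058 and 2255 in Cx3cr1+ macrophage-like cells (log2 fold change -0.60 ± 0.07 (SE), edgeR adjusted p = 2.52e-07). Rplp1 differed least of these (log2 fold change -0.32 ± 0.09 (SE), edgeR adjusted p = 0.00568), and its call was lost with plain UMI totals (-0.14, adjusted p = 0.188), without Cd11cYFP replicate 1 (-0.26, adjusted p = 0.145) and without Cd11cYFP replicate 2 (-0.28, adjusted p = 0.162). The proteins of Rpl5 and Rpl11 bind the 5S rRNA and, when unassembled, the p53 regulator MDM2. Both genes fell by close amounts, with log2 -0.60 ± 0.09 for Rpl5 and log2 -0.60 ± 0.08 for Rpl11 (edgeR adjusted p = 1.2e-05 and 2.17e-06).

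Rps27a, which encodes ubiquitin fused to a small-subunit protein, had 1241, 1112 and 1253 normalized CPM in Timd4+ macrophage-like cells, against 1886, 2090.0 and 2114 in Cx3cr1+ macrophage-like cells (log2 fold change -0.75 ± 0.08 (SE), edgeR adjusted p = 1.17e-07). Rpsa, a small-subunit protein also known as the laminin receptor, fell less (log2 fold change -0.34 ± 0.08 (SE), edgeR adjusted p = 0.00148) and lost its call with plain UMI totals (-0.15, adjusted p = 0.105) and without Cd11cYFP replicate 2 (-0.30, adjusted p = 0.105). The largest differences were those of Rps26 and the large-subunit gene Rpl10a. Rps26, which binds mRNA near the exit channel, had 737, 717 and 806 normalized CPM in Timd4+ macrophage-like cells, against 1152, 1595 and 1719.7 in Cx3cr1+ macrophage-like cells (log2 fold change -0.95 ± 0.10 (SE), edgeR adjusted p = 1.46e-07). All 3 values in Timd4+ cells lay below all 3 in Cx3cr1+ cells. Rpl10a was at log2 -0.89 ± 0.10 (edgeR adjusted p = 2.9e-07).

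The 3 genes that did not pass were Rpl21 (-0.18), Rpl13a (-0.22) and Rps6 (-0.33 on the log2 scale). Without MAFIA replicate 2 they passed too, at -0.20, adjusted p = 0.0447 for Rpl21, -0.30, adjusted p = 0.0108 for Rpl13a and -0.57, adjusted p = 0.000423 for Rps6. With plain UMI totals Rpl21 turned to 0.013. The summed CPM of 10 thymocyte markers, all with UMIs in every library, was 485, 531 and 319 in Timd4+ and 579, 512 and 381 in Cx3cr1+ cells, and that of 8 B cell markers was 491, 354 and 572 in Timd4+ and 294, 314 and 412 in Cx3cr1+ cells. Both marker types belong to classes with a higher ribosomal protein share, and their part in these differences was not tested. The summed CPM of 12 proliferation markers was 282, 628 and 371 in Timd4+ and 979, 977 and 1326 in Cx3cr1+ cells, and its part was not tested.

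Lists of related genes were followed beside the family, where 15.1% and 17.7% of all genes tested were higher and lower. Of the 4 further ribosomal genes whose symbols the rule misses, 4 were lower, among them Rack1 (log2 -0.48 ± 0.09). Of 77 tested genes for mitochondrial ribosomal proteins, 1 was higher and 31 were lower (median -0.23), with Mrpl38 at log2 -0.98 ± 0.15. Among 57 ribosome biogenesis genes, 3 were higher, such as Utp15 (log2 0.86 ± 0.13), and 15 were lower, such as Nhp2 (log2 -0.87 ± 0.13), around a median of -0.05. Of 37 translation factors, 1 was higher and 23 were lower (median -0.27), including Eef1a1, which brings aminoacyl-tRNA to the ribosome, at log2 -0.62 ± 0.09 and Nap1l1, a histone chaperone gene kept in that list, at log2 -0.89 ± 0.11. Of 24 regulators of ribosome production, 3 were higher and 3 were lower (12.5% each), below the shares over all genes. Ddit4, an inhibitor of mTORC1, had 23.8, 21.2 and 18.9 normalized CPM in Timd4+ macrophage-like cells, against 3.37, 3.52 and 5.93 in Cx3cr1+ macrophage-like cells (log2 fold change 2.34 ± 0.25 (SE), edgeR adjusted p = 1.57e-07), and Sesn3, a sestrin that also restrains mTORC1, was higher (log2 1.18 ± 0.15) with non-overlapping values.

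Cx3cr1+ macrophage-like cells in turn had less than monocyte-like cells. Of the 77, 0 were higher and 76 were lower, where 16.4% and 15.7% of all genes tested were higher and lower (32.1% in either direction). The count higher was 0 at an unadjusted p below 0.05 and 0 with DESeq2. The median log2 fold change was -0.67 (range -1.001 to -0.22), against 0.03 over all genes. The 12 proliferation markers summed to 979, 977 and 1326 CPM in Cx3cr1+ macrophage-like and 259.9, 355 and 466 CPM in monocyte-like cells, and their part was not tested, nor was that of the neutrophil markers given above. The 9 monocyte markers summed to 9393, 4719 and 2684 CPM in monocyte-like and 906, 553 and 567 CPM in Cx3cr1+ cells. They did not set monocyte-like apart from pDC-like cells, which had 7556, 7188 and 4979 CPM. Monocyte-like cells also held 3453, 6577 and 6454 CPM of the macrophage markers C1qa, C1qb and C1qc.

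The stalk genes did not move alike. Rplp0 had 1600.4, 1305 and 1473 normalized CPM in Cx3cr1+ macrophage-like cells, against 2592, 2248 and 2653 in monocyte-like cells (log2 fold change -0.78 ± 0.10 (SE), edgeR adjusted p = 2.55e-06), and Rplp2 fell (log2 -0.53 ± 0.07). Rplp1 had 3796, 3878 and 4089 normalized CPM in Cx3cr1+ macrophage-like cells, against 3963, 4629.5 and 5146 in monocyte-like cells, values that overlapped, and did not pass (log2 fold change -0.22 ± 0.09 (SE), edgeR adjusted p = 0.0542). It passed without MAFIA replicate 2, at -0.29, adjusted p = 0.00448. Rpl5 (log2 -0.59 ± 0.09), Rpl11 (log2 -0.74 ± 0.08), Rps27a (log2 -0.77 ± 0.08) and Rpsa (log2 -0.89 ± 0.08) were all lower.

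The 3 largest differences were those of Rps27, Rpl18 and Rpl36. Rps27, a zinc-finger protein of the small subunit, had 1050.2, 1701 and 1692 normalized CPM in Cx3cr1+ macrophage-like cells, against 2256, 3619 and 2957 in monocyte-like cells (log2 fold change -1.001 ± 0.09 (SE), edgeR adjusted p = 1.46e-08). Rpl18 had 1127, 1042 and 1145 normalized CPM in Cx3cr1+ macrophage-like cells, against 2037, 2132 and 2096 in monocyte-like cells (log2 fold change -0.92 ± 0.08 (SE), edgeR adjusted p = 1.15e-08). The SD of Rpl18 was 55.1 CPM in Cx3cr1+ and 48.0 CPM in monocyte-like cells, and the groups did not overlap. Rpl36 was lower (log2 -0.91 ± 0.08).

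The companion lists pointed mostly the same way, where 16.4% and 15.7% of all genes tested were higher and lower. All 4 ribosomal genes outside the name rule were lower, among them Fau, which encodes a ubiquitin-like protein fused to a small-subunit protein (log2 -0.91 ± 0.08), and Rack1 (log2 -0.74 ± 0.09). Mitochondrial ribosomal protein genes were higher for 4 and lower for 26 of 77 (median -0.20), between Mrpl38 at log2 0.68 ± 0.15 and Mrpl33 at log2 -1.09 ± 0.09. Of 57 biogenesis genes 21 were lower and the others did not pass (median -0.27), the lower ones including Polr1a, the catalytic subunit of RNA polymerase I (log2 -0.94 ± 0.16), and Fbl, the rRNA methyltransferase (log2 -0.61 ± 0.10). Translation factors were higher for 2 and lower for 24 of 37 (median -0.33), with Eif3i at log2 -0.71 ± 0.10 and Btf3 at log2 -0.69 ± 0.07. Of the 24 regulators, 2 were higher, one of them Sesn1 (log2 0.82 ± 0.17), and 5 were lower. The lower ones included Ddit4, with a log2 fold change of -1.05, and Mxd1, with -0.91.

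Mature Ccr7+ DC-like cells were compared with Xcr1+ DC-like cells, the largest DC class. Here the family split. Of the 77 canonical genes 7 were higher and 48 were lower, where 32.6% and 31.1% of all genes were higher and lower (63.7% in either direction), and 22 did not pass. The median log2 fold change was -0.26 (range -0.99 to 0.49), against 0.06 over all genes. The count lower was 30 without Cd11cYFP replicate 1 and 32 without Cd11cYFP replicate 2, and the count higher was 3 without Cd11cYFP replicate 2. Xcr1+ DC-like cells held 2858, 2844 and 2747 CPM of 12 proliferation markers, against 309.8, 374 and 393 in Ccr7+ DC-like cells. With only Xcr1+ cells that had 0 proliferation UMIs, 4 were higher and 63 lower, and with plain UMI totals 3 and 64.

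Rps19, a small-subunit protein mutated in Diamond-Blackfan anaemia in humans, had 5786, 5675 and 5526 normalized CPM in Ccr7+ DC-like cells, against 3830.5, 4139.9 and 4117 in Xcr1+ DC-like cells (log2 fold change 0.49 ± 0.08 (SE), edgeR adjusted p = 4.56e-06). Its ranges were far apart, and the values in Ccr7+ DC-like cells lay within the range of B cell-like cells (5884, 5524 and 5420.3). Rps27 had 3637, 5210.1 and 5318 normalized CPM in Ccr7+ DC-like cells, against 2539.5, 3738 and 3993 in Xcr1+ DC-like cells (log2 fold change 0.47 ± 0.09 (SE), edgeR adjusted p = 4.92e-05). The ranges of Rps27 overlapped, both classes were lowest in the MAFIA library, and each library alone gave the same direction. Without the block for library its fold change was 0.46, adjusted p = 0.128. Rps24 had 7149, 7486 and 8106 normalized CPM in Ccr7+ DC-like cells, against 5753, 6189.9 and 6738 in Xcr1+ DC-like cells (log2 fold change 0.28 ± 0.07 (SE), edgeR adjusted p = 0.000904), again with no overlap.

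The other 4 higher genes had smaller differences. These were Rplp2 at log2 0.25 ± 0.07, Rpl39 at log2 0.24 ± 0.07, Rps9 at log2 0.21 ± 0.07 and Rpl34 at log2 0.18 ± 0.08. With plain UMI totals all 4 lost their call, at 0.12, adjusted p = 0.0921 for Rplp2, 0.12, adjusted p = 0.103 for Rpl39, 0.09, adjusted p = 0.206 for Rps9 and 0.06, adjusted p = 0.434 for Rpl34. Against Xcr1+ cells with 0 proliferation UMIs only, 3 of them did, at 0.10, adjusted p = 0.251 for Rpl39, 0.04, adjusted p = 0.686 for Rps9 and 0.03, adjusted p = 0.791 for Rpl34. Without Cd11cYFP replicate 2 all 4 lost their call with fold changes of similar size, 0.26, adjusted p = 0.051 for Rplp2, 0.26, adjusted p = 0.0735 for Rpl39, 0.24, adjusted p = 0.0791 for Rps9 and 0.18, adjusted p = 0.216 for Rpl34, and so did Rpl34 without Cd11cYFP replicate 1 (0.22, adjusted p = 0.115). They also lost it without the low-count filter and without the block for library.

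The other stalk genes went the opposite way to Rplp2. Rplp0 had 3963, 2568 and 3167 normalized CPM in Ccr7+ DC-like cells, against 4096, 3679.9 and 4076 in Xcr1+ DC-like cells (log2 fold change -0.30 ± 0.10 (SE), edgeR adjusted p = 0.0103) and Rplp1 was lower (log2 -0.32 ± 0.09). Both calls were lost without Cd11cYFP replicate 1 (-0.19, adjusted p = 0.212 for Rplp0 and -0.25, adjusted p = 0.0901 for Rplp1) and without Cd11cYFP replicate 2 (-0.27, adjusted p = 0.156 and -0.31, adjusted p = 0.0616). Of the 5S particle genes, Rpl5 had 1218, 927 and 1075 normalized CPM in Ccr7+ DC-like cells, against 1494, 1566 and 1629 in Xcr1+ DC-like cells (log2 fold change -0.54 ± 0.09 (SE), edgeR adjusted p = 1.14e-05), with no overlap. Rpl11 did not pass (log2 fold change -0.16 ± 0.08 (SE), edgeR adjusted p = 0.0856), except without MAFIA replicate 2 (-0.23, adjusted p = 0.00679). Rps27a was lower (log2 -0.37 ± 0.08).

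Rpl4, a large-subunit protein that lines the exit tunnel, had 854, 557 and 619.9 normalized CPM in Ccr7+ DC-like cells, against 1399, 1234 and 1204 in Xcr1+ DC-like cells (log2 fold change -0.93 ± 0.09 (SE), edgeR adjusted p = 2.91e-09). Rps6 (log2 -0.84 ± 0.13) and Rpl14 (log2 -0.78 ± 0.09) were lower too.

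Genes that build ribosomes had a lower median fold change than the 77 ribosomal protein genes. Of all genes tested, 32.6% and 31.1% were higher and lower. The part of the proliferation markers given above in the companion lists was not tested. Of 57 biogenesis genes, 1 was higher and 52 were lower (median -1.37). Polr1a had 3.24, 5.08 and 5.81 normalized CPM in Ccr7+ DC-like cells, against 38.5, 50.8 and 45.5 in Xcr1+ DC-like cells (log2 fold change -3.21 ± 0.16 (SE), edgeR adjusted p = 1.03e-13), and Wdr12, part of the PeBoW complex of large-subunit assembly, was lower (log2 -2.77 ± 0.11). The 1 higher gene was Sbds, a factor of late large-subunit maturation (144, 172 and 169 normalized CPM in Ccr7+ DC-like cells, against 68.1, 67.8 and 68.9 in Xcr1+ DC-like cells, log2 fold change 1.24 ± 0.08 (SE), edgeR adjusted p = 4.22e-12). Mitochondrial ribosomal protein genes were higher for 7 and lower for 67 of 77 (median -0.61), between Mrpl14 at log2 1.57 ± 0.10 and Mrps28 at log2 -2.31 ± 0.13, with Mrpl42 at log2 -2.18 ± 0.12.

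Translation factors were higher for 4 and lower for 24 of 37 (median -0.26). Eif4a2, a helicase of the initiation complex, was higher (log2 1.09 ± 0.10), as was the start-codon factor gene Eif1 (log2 1.07 ± 0.08), while Eif5a was lower (log2 -1.29 ± 0.10). Of the 24 regulators, 10 were higher (41.7%) and 9 were lower (37.5%), where 32.6% and 31.1% of all genes tested were higher and lower. Mxd1, a MAX partner that opposes MYC, had 406, 818 and 728 normalized CPM in Ccr7+ DC-like cells, against 27.2, 43.7 and 51.5 in Xcr1+ DC-like cells (log2 fold change 4.00 ± 0.30 (SE), edgeR adjusted p = 7.44e-10). Myc itself had 1.11, 1.23 and 2.17 normalized CPM in Ccr7+ DC-like cells, against 9.85, 13.6 and 12.3 in Xcr1+ DC-like cells (log2 fold change -2.91 ± 0.29 (SE), edgeR adjusted p = 1.24e-08). Tsc1, a brake on mTORC1, was higher (log2 2.47 ± 0.18), and Eif4ebp1, whose protein binds the cap-binding factor, was lower (log2 -1.61 ± 0.16). Outside the name rule, Fau was higher (log2 0.31 ± 0.08), a call lost against Xcr1+ cells with 0 proliferation UMIs only (0.15, adjusted p = 0.137) and without the block for library (0.31, adjusted p = 0.0662), while Rack1 (log2 -0.62 ± 0.09) and Rpl36al (log2 -0.97 ± 0.10) were lower.

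Plasmacytoid (pDC-like) cells, the class known for type I interferon, were also set against Xcr1+ DC-like cells. Of the 77 canonical genes 1 was higher and 74 were lower, where 26.4% and 29.5% of all genes were higher and lower (55.9% in either direction). The median log2 fold change was -0.60 (range -1.09 to 1.29), against -0.02 over all genes. By UMI totals without TMM scaling the canonical median was -0.22 and the all-gene median 0.34, with 4 higher and 45 lower. The pDC-like class held 1150.1, 1387 and 1124 CPM of the 10 thymocyte markers, against 159, 158 and 179 in Xcr1+ DC-like cells. It held 2068, 1964 and 1668 CPM of the 8 B cell markers, against 238, 277 and 352 in Xcr1+ DC-like cells, and the part of either in the result was not tested. The 12 proliferation markers summed to 464, 1162 and 867 CPM in pDC-like cells, against 2858, 2844 and 2747 in Xcr1+ DC-like cells. Against Xcr1+ cells with 0 proliferation UMIs only, the canonical median was -0.68. The part of these markers in the companion lists was not tested.

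The 1 higher gene was Rpl31, a large-subunit protein near the exit tunnel, with 2235, 2746 and 2486 normalized CPM in pDC-like cells, against 847, 1139 and 1085 in Xcr1+ DC-like cells (log2 fold change 1.29 ± 0.10 (SE), edgeR adjusted p = 1.41e-10). The lowest pDC-like value lay far above the highest Xcr1+ value. Rps27 (log2 0.16 ± 0.09) and Rpl10 (log2 -0.13 ± 0.08) were the 2 that did not pass, with edgeR adjusted p = 0.125 and 0.159. Rpl10 turned to 0.24 with plain UMI totals, and Rps27 to -0.048 against Xcr1+ cells with 0 proliferation UMIs only.

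The stalk genes were all lower, Rplp0 (log2 -0.85 ± 0.10), Rplp1 (log2 -0.76 ± 0.09) and Rplp2 (log2 -0.61 ± 0.07), and so were Rpl5 (log2 -0.44 ± 0.09), Rpl11 (log2 -0.50 ± 0.08) and Rps27a (log2 -0.82 ± 0.08). With plain UMI totals the calls of Rpl5 (-0.06, adjusted p = 0.526) and Rpl11 (-0.12, adjusted p = 0.108) were lost. Rpsa had 1998, 2185 and 2474 normalized CPM in pDC-like cells, against 4489, 4543 and 4908 in Xcr1+ DC-like cells (log2 fold change -1.07 ± 0.08 (SE), edgeR adjusted p = 1.02e-10). Rps19, higher in Ccr7+ DC-like cells, had 1816, 1871 and 2098 normalized CPM in pDC-like cells, against 3830.5, 4139.9 and 4117 in Xcr1+ DC-like cells (log2 fold change -1.06 ± 0.08 (SE), edgeR adjusted p = 5.66e-11). Rps2, a small-subunit protein at the mRNA entry, had 1837, 1850.0 and 1936 normalized CPM in pDC-like cells, against 3904, 3959.9 and 3953 in Xcr1+ DC-like cells (log2 fold change -1.07 ± 0.09 (SE), edgeR adjusted p = 3.27e-10). In these 3 genes the groups did not overlap. The lowest fold change was that of Rpl14, log2 -1.09 ± 0.09.

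Beside the companion lists, 26.4% and 29.5% of all genes tested were higher and lower. In these lists, 59 of 77 mitochondrial ribosomal protein genes were lower and the others did not pass (median -0.45), with Mrpl42 at log2 -1.59 ± 0.12. Of the biogenesis genes 1 was higher and 44 were lower (median -0.62), among them Wdr12 (log2 -2.39 ± 0.12) and Polr1a (log2 -2.08 ± 0.17). Of the translation factors 1 was higher and 30 were lower (median -0.63), among them Nap1l1 (log2 -1.66 ± 0.12) and the elongation factor gene Eef1b2 (log2 -1.43 ± 0.09). Among 24 regulators 9 were higher (37.5%) and 7 lower (29.2%). Ddit4 had 11.2, 9.3 and 15.8 normalized CPM in pDC-like cells, against 1.47, 1.71 and 1.59 in Xcr1+ DC-like cells (log2 fold change 2.88 ± 0.28 (SE), edgeR adjusted p = 9.53e-09), while Eif4ebp1 (log2 -2.82 ± 0.20) and Myc (log2 -2.43 ± 0.37) were lower.

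Within the Xcr1+ class, 2053 cells with at least 3 proliferation UMIs after reduction to 3000 UMIs (cycling) were compared with 1376 cells with 0 (resting). A further 1680 cells with 1 or 2 were left out, and 283 cells lay exactly at 3. The gate used no ribosomal protein gene. The canonical share was 18.7%, 22.6% and 21.9% in cycling and 20.9%, 23.5% and 24.1% in resting cells, lower in each library. Per cell the order was the reverse, with medians of 6219.5, 7107 and 6002.5 canonical UMIs in cycling and 5159, 5275 and 4749 in resting cells, whose median total UMIs were 27598.5 to 32660.0 and 19652 to 24556.

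Of the 77 canonical genes 1 was higher and 50 were lower, where 22.4% and 22% of 12928 genes were higher and lower (44.4% in either direction). Differences were small, with a median log2 fold change of -0.17 (range -0.38 to 0.23), against -0.03 over all genes. The count lower was 22 without Cd11cYFP replicate 2, and without the library block 0 were higher and 4 lower. The fit with the block rests on 6 sums and 2 residual degrees of freedom.

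Rpl10, which closes the assembly of the large subunit, had 2420.2, 2782 and 2597 normalized CPM in cycling cells, against 3403, 3341 and 3415 in resting cells (log2 fold change -0.38 ± 0.05 (SE), edgeR adjusted p = 9.13e-06), with no overlap. Rps27 (log2 -0.37 ± 0.05) and Rpl17 (log2 -0.36 ± 0.05) were lower. The stalk, 5S and fusion genes were lower by smaller amounts, Rplp0 (log2 -0.15 ± 0.05), Rplp1 (log2 -0.23 ± 0.05), Rplp2 (log2 -0.14 ± 0.05), Rpl5 (log2 -0.20 ± 0.05), Rpl11 (log2 -0.16 ± 0.05) and Rps27a (log2 -0.20 ± 0.05). Without Cd11cYFP replicate 2 these 6 lost their calls with fold changes of similar size, at -0.14, adjusted p = 0.279 for Rplp0, -0.22, adjusted p = 0.0826 for Rplp1, -0.13, adjusted p = 0.322 for Rplp2, -0.17, adjusted p = 0.132 for Rpl5, -0.13, adjusted p = 0.285 for Rpl11 and -0.18, adjusted p = 0.146 for Rps27a. So did Rplp0 (-0.12, adjusted p = 0.0807) and Rplp2 (-0.12, adjusted p = 0.104) without MAFIA replicate 2, and Rplp2 with plain UMI totals (-0.08, adjusted p = 0.0762).

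Mitochondrial ribosomal protein and biogenesis genes moved the other way. Of all genes tested here, 22.4% and 22% were higher and lower. Of 77 mitochondrial ribosomal protein genes, 49 were higher and 1 was lower (median 0.23), with Mrpl13 at 70.5, 79.9 and 70.7 normalized CPM in cycling cells, against 36.4, 38.4 and 37.3 in resting cells (log2 fold change 0.97 ± 0.06 (SE), edgeR adjusted p = 1.08e-10) and Mrpl28 higher (log2 0.85 ± 0.06). Of 57 biogenesis genes, 32 were higher and 1 was lower (median 0.21). Nop56, a core protein of box C/D small nucleolar particles, was higher (log2 0.87 ± 0.06), as was the pseudouridine synthase gene Dkc1 (log2 0.86 ± 0.07). Of 37 translation factors, 10 were higher (27.0%), led by Nap1l1 (log2 0.75 ± 0.05), and 11 were lower (29.7%), led by Eif3f (log2 -0.36 ± 0.05). Both shares were near those over all genes. Of 23 regulators tested 2 were higher and 4 lower, the lowest being Mxd4, another MAX partner, with 12.2, 16.4 and 18.3 normalized CPM in cycling cells, against 44.4, 45.4 and 41 in resting cells (log2 fold change -1.44 ± 0.11 (SE), edgeR adjusted p = 6.47e-08). Fau was lower (log2 -0.29 ± 0.05).

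**Figure D2:**
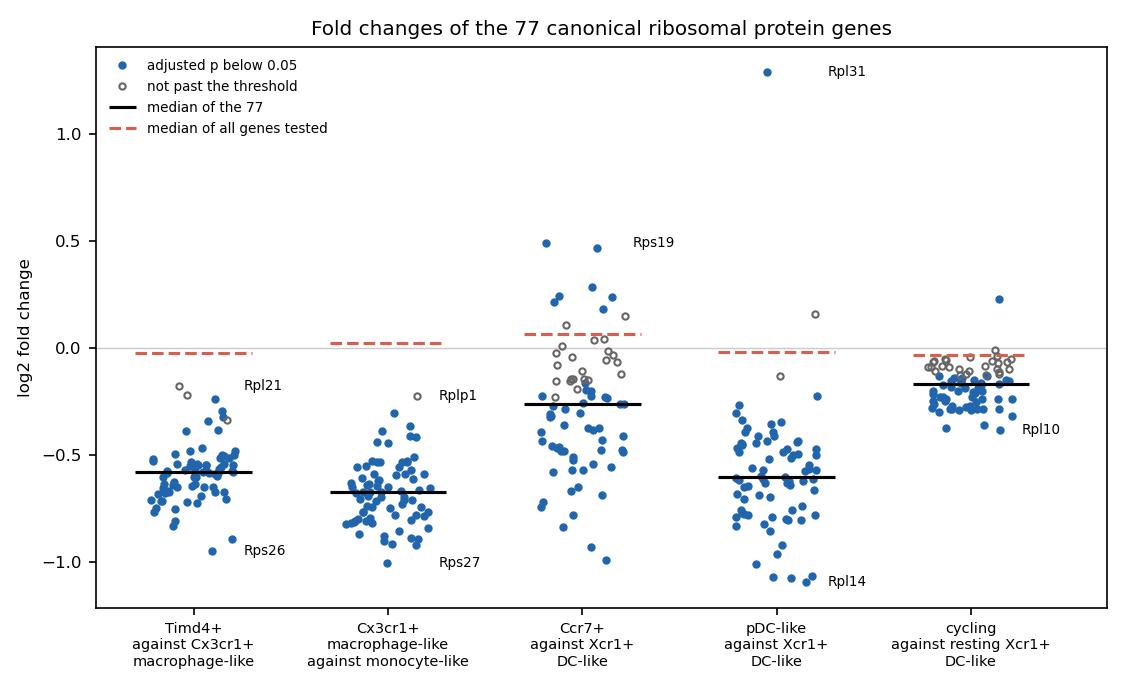
Log2 fold change of each of the 77 canonical ribosomal protein genes in 5 comparisons. Filled points passed an edgeR adjusted p below 0.05, open points did not, black lines are the median of the 77 and dashed lines the median of all genes tested; the canonical medians are -0.58, -0.67, -0.26, -0.60 and -0.17, and Rpl31 (1.29) stands apart in pDC-like cells.

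Relative to the rest of the family, most genes kept a similar proportion. A gene's share of the summed canonical level differed between its highest and lowest class by a median of 1.37-fold (range 1.11 to 4.41), and for 62 of 77 by under 1.5-fold. The 2 largest ratios were those of Rpl31 (4.41) and Rps19 (2.28).

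Rpl31 made up 1.44% ± 0.062 (SD, n = 3 libraries) of the canonical level in pDC-like cells and between 0.326% and 0.52% in the other 8 classes. Its locus (chr1:39406884-39413938, GRCm39) is overlapped on the opposite strand by Tbc1d8, which had 181, 132 and 142 normalized CPM in pDC-like cells, 218, 249 and 225 in Ccr7+ DC-like cells and 64.6, 78.6 and 66.3 in Xcr1+ DC-like cells. Among the 9 classes, Ccr7+ DC-like cells had the most Tbc1d8 and pDC-like cells the next most. The Rpl31 share was smallest in Ccr7+ DC-like and largest in pDC-like cells. Whether Tbc1d8 RNA bears on the Rpl31 counts was not tested. Rps19 made up 2.55% ± 0.154 in Ccr7+ DC-like cells, 1.82% ± 0.177 in B cell-like cells and 1.12% ± 0.0787 in pDC-like cells, its lowest. The plot of shares within the family shows the 3 libraries close together for both genes.

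**Figure D3:**
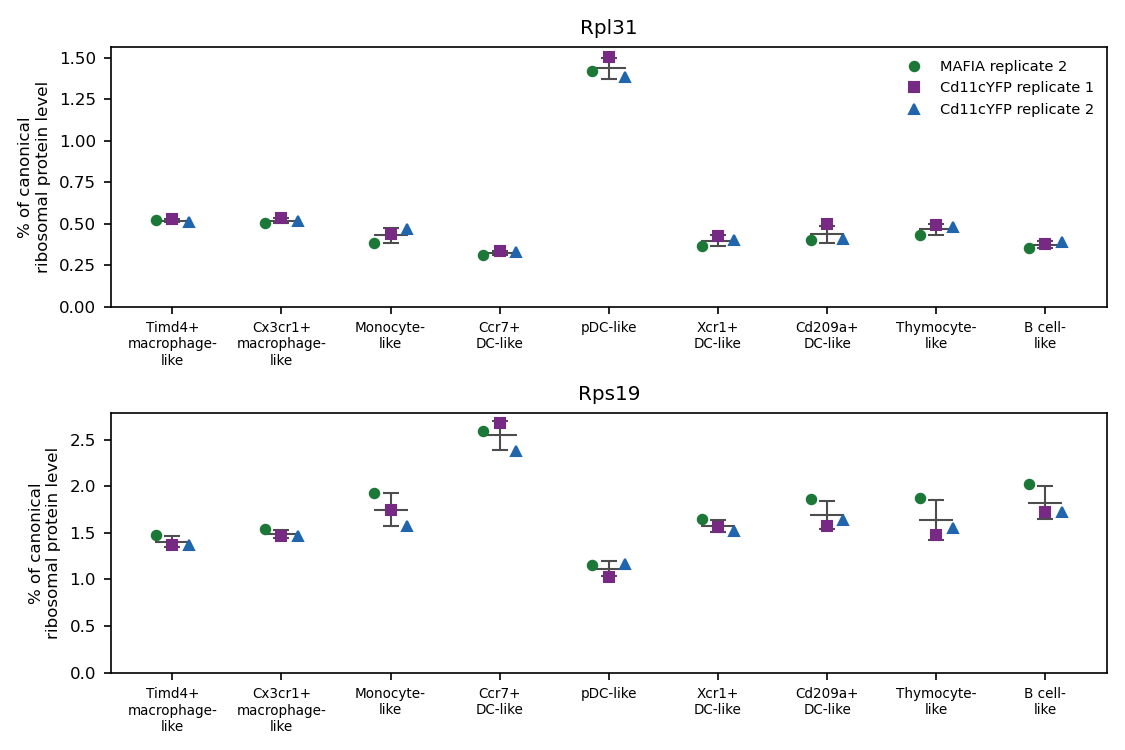
Share of the summed canonical ribosomal protein level (percent) taken by Rpl31 and Rps19 in 9 cell classes, with 3 libraries as points and bars for the mean and SD. Rpl31 is highest in pDC-like cells (mean 1.44%), and Rps19 is highest in Ccr7+ DC-like cells (2.55%) and lowest in pDC-like cells (1.12%).

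The 12 paralogs and retrogenes together had 0.573% as many UMIs as the canonical genes. Of them 8 passed the low-count filter in the fit of all classes (6 in the cycling fit), and Rpl10l and Rps12l1 had 0 UMIs in all clustered cells, so no fold is given for them. Rps27l (ENSMUSG00000036781, chr9:66853340-66856808, GRCm39), a p53-responsive copy of Rps27 (ENSMUSG00000090733, chr3:90119819-90120977), had the most UMIs of the 12. Both coding sequences are 255 bases long and share 194 bases (76.1%), and they are printed to show how far the copies can be told apart, with the 61 bases that differ in capitals, from GENCODE vM39 on GRCm39.
Rps27l coding sequence: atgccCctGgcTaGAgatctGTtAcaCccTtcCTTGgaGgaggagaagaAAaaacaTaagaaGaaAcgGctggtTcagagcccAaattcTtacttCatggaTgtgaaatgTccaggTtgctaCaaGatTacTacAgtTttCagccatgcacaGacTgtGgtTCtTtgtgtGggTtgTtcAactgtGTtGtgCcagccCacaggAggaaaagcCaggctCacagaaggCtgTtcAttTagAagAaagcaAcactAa
Rps27 coding sequence: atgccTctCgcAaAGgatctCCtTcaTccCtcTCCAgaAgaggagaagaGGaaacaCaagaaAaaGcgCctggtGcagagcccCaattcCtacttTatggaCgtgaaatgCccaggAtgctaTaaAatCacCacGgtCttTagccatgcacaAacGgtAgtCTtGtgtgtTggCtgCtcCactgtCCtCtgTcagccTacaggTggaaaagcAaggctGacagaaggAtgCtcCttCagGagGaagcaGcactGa

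Rps27l went its own way in mature DCs. It had 1668, 1855 and 1757 normalized CPM in Ccr7+ DC-like cells, against 678, 699 and 582 in Xcr1+ DC-like cells (log2 fold change 1.43 ± 0.10 (SE), edgeR adjusted p = 2.7e-11), a difference in which no values overlap, beside 0.47 for Rps27. Against the same Xcr1+ cells it was lower in pDC-like cells, with 369.5, 307 and 336 normalized CPM in pDC-like cells, against 678, 699 and 582 in Xcr1+ DC-like cells (log2 fold change -0.95 ± 0.10 (SE), edgeR adjusted p = 3.41e-08). Cx3cr1+ macrophage-like cells had less than monocyte-like cells (log2 -0.49 ± 0.10), Timd4+ less than Cx3cr1+ cells (log2 -0.48 ± 0.10), and cycling more than resting Xcr1+ cells (log2 0.28 ± 0.05), each past the threshold.

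Rpl22l1, a copy of Rpl22, was highest by normalized CPM in lymphoid classes, with 747, 892 and 931 in B cell-like and 634, 693 and 664 in thymocyte-like cells. Relative to the summed canonical level it was highest in Timd4+ macrophage-like cells (0.370%) and lowest in Xcr1+ DC-like cells (0.161%). It had 253, 257 and 371 normalized CPM in Timd4+ macrophage-like cells, against 366, 349 and 473 in Cx3cr1+ macrophage-like cells (log2 fold change -0.44 ± 0.12 (SE), edgeR adjusted p = 0.00744), a call lost with plain UMI totals (-0.25, adjusted p = 0.147) and without MAFIA replicate 2 (-0.40, adjusted p = 0.134). In Cx3cr1+ against monocyte-like cells it was higher (log2 fold change 0.38 ± 0.12 (SE), edgeR adjusted p = 0.022), unlike the canonical genes, but lost the call without MAFIA replicate 2 (0.30, adjusted p = 0.273) or Cd11cYFP replicate 1 (0.33, adjusted p = 0.154). It was lower in cycling cells (log2 -0.19 ± 0.05).

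Rps4l, an autosomal copy of the X-linked Rps4x, was higher in Timd4+ than in Cx3cr1+ cells, with 37.9, 25.1 and 21.5 normalized CPM in Timd4+ macrophage-like cells, against 27.5, 12.4 and 12.7 in Cx3cr1+ macrophage-like cells (log2 fold change 0.73 ± 0.18 (SE), edgeR adjusted p = 0.00304), and its values overlapped. The call was lost without Cd11cYFP replicate 1 (0.60, adjusted p = 0.0708). In pDC-like cells it had 62.4, 48.9 and 40.1 normalized CPM, its highest class, against 39.9, 32.9 and 32.6 in Xcr1+ cells (log2 fold change 0.51 ± 0.17 (SE), edgeR adjusted p = 0.0157), a call lost without Cd11cYFP replicate 1 (0.47, adjusted p = 0.0866). Its level was highest in the MAFIA library in 9 of 9 classes. Rpl7l1, a nucleolar relative of Rpl7, was lower in Ccr7+ (log2 -0.66 ± 0.08) and pDC-like cells (log2 -0.66 ± 0.08) than in Xcr1+ cells and higher in cycling than in resting cells (log2 0.29 ± 0.06).

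Rpl3l, the striated muscle form of Rpl3, was rare but not evenly spread. It had 29, 56 and 103 UMIs in Ccr7+ DC-like cells, against 10, 10 and 18 in Xcr1+ DC-like cells, or 2.69, 2.87 and 3.44 normalized CPM in Ccr7+ DC-like cells, against 0.46, 0.343 and 0.307 in Xcr1+ DC-like cells (log2 fold change 3.07 ± 0.36 (SE), edgeR adjusted p = 1.04e-07). Timd4+ macrophage-like cells had 4 UMIs of 16455867, against 100 of 41922666 in Cx3cr1+ macrophage-like cells, a ratio of 0.102 (exact 95% interval 0.0272 to 0.269, counting error only). In pDC-like cells it had 16, 4 and 2 UMIs (log2 fold change 1.53 ± 0.49 (SE), edgeR adjusted p = 0.011), and that call was lost without Cd11cYFP replicate 1 (1.46, adjusted p = 0.1). Rpl39l, a copy of Rpl39 best known from the male germline, was higher in Ccr7+ than in Xcr1+ DC-like cells (log2 fold change 2.55 ± 0.52 (SE), edgeR adjusted p = 0.000177), with 1.76, 1.28 and 2.07 normalized CPM in Ccr7+ and 0.046, 0.24 and 0.444 in Xcr1+ cells, from 106 and 34 UMIs in all. In Cx3cr1+ against monocyte-like cells it passed (log2 fold change 1.80 ± 0.66 (SE), edgeR adjusted p = 0.039), with MAFIA replicate 2 far above the others (4.66, 0.837 and 1.10 normalized CPM in Cx3cr1+ cells), and not without MAFIA replicate 2 (0.86, adjusted p = 0.34) or Cd11cYFP replicate 1 (1.94, adjusted p = 0.171). The retrogenes Rpl32l, Rps3a3, Rpl6l and Rps3a2 had 78, 144, 947 and 1056 UMIs in all, and reads of these near-identical copies may be assigned to either copy or to neither.

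**Figure D4:**
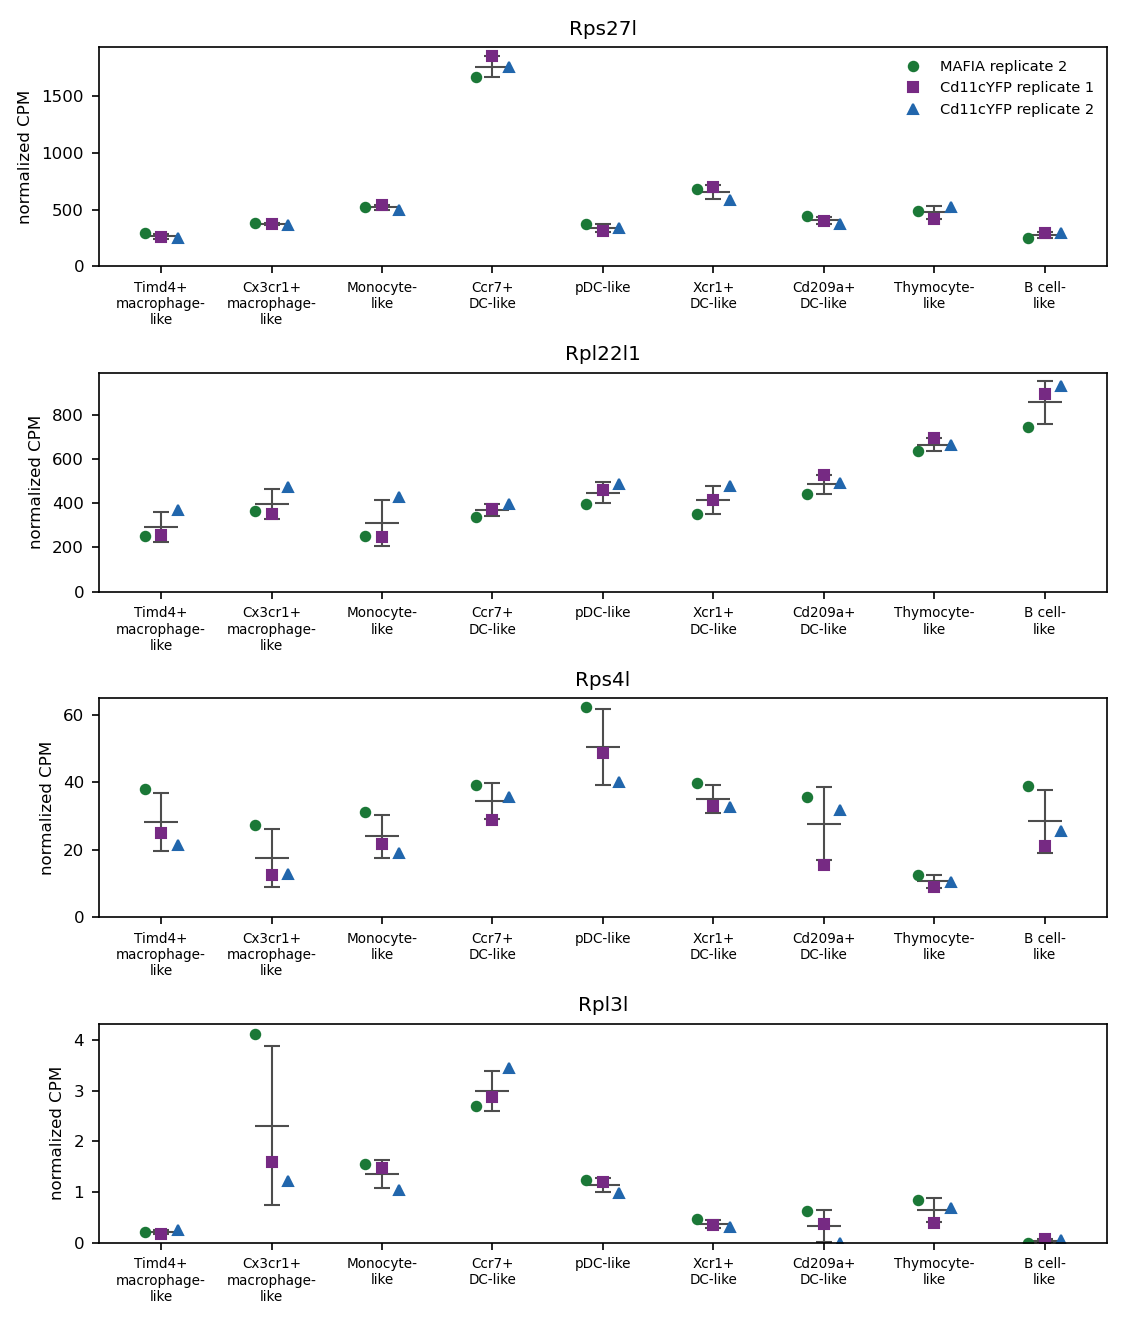
Normalized CPM of 4 ribosomal protein paralogs in 9 cell classes, with 3 libraries as points and bars for the mean and SD. Rps27l is highest in Ccr7+ DC-like cells (1668 to 1855), Rpl22l1 in B cell-like cells (747 to 931), Rps4l in pDC-like cells (40.1 to 62.4) and Rpl3l in Ccr7+ DC-like cells (2.69 to 3.44).

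Libraries also differed from each other in single genes within every class. In MAFIA replicate 2, 16 of the 77 canonical genes (20.8%) had their lowest value of the 3 libraries in all 9 classes, and 0 had their highest. Among the 1444 genes above a mean of 100 normalized CPM, 10.4% were lowest and 7.96% highest there in all classes. The widest gaps were those of Rps6, whose MAFIA level was 0.347 times that of the Cd11cYFP libraries (median over classes), Rps28 (0.511), Rpl27a (0.557), Rpl38 (0.625), Rpl15 (0.634) and Rps21 (0.659). Reporter, age, sex and library cannot be told apart here, and the comparisons between classes hold library as a block.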

How the data were processed

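Thymic cells sorted for EGFP or YFP were measured in 4 droplet libraries. The deposited files hold raw UMI counts per gene and barcode, which the authors made with bcl2fastq 2.20, Cell Ranger and STAR 2.7.9a on GRCm39 (mm39), as the submitters' processing notes list them. The study's methods name another build (mm10) and a Cell Ranger release that the notes lack, and which of them made these files was not settled. The deposited gene list was read as it stands, and coordinates in the text were looked up by gene ID in the GRCm39 annotation. The labels give reporter, age and replicate. Members and lists were chosen with earlier results of these data known.

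Cells with 1000 to 7000 genes and at most 10% mitochondrial UMIs were kept (23549 cells in MAFIA replicate 2 and both Cd11cYFP libraries). Genes in at least 3 cells were normalized to totals without ribosomal protein genes, and 2000 variable genes that include none of them, 70 principal components and 5 neighbours per library gave clusters by Leiden (leidenalg 0.10.2, resolution 1.0). A cluster took the class with the best marker score, at least 0.5, unless a second class reached 80% of it, a rule chosen with the clusters already in view. Doublets were left in, and an alternative removed 316, 470 and 754 likely ones.

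UMI counts were summed per class and library (at least 20 cells) and tested with edgeR 4.0.16 in R 4.3.3 (TMM, its filter on low counts, robust quasi-likelihood fit, Benjamini-Hochberg adjustment over all genes tested, threshold 0.05). The 27 sums of 9 classes entered 1 fit with 16 residual degrees of freedom, and cycling against resting cells a fit of its own. Library was a block, as the classes of a library come from the same sort, so the pairing is given by the design. DESeq2 1.42.0 was an alternative. The depth was 1776590 to 68851746 UMIs per class sum. Python 3.11.15 was used for the rest.

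On simulated counts with known changes, the fits recovered the following shares of genes changed 2-fold: 68.8% for Timd4+ against Cx3cr1+ (14261 genes), 73% for Cx3cr1+ against monocyte-like (14298), 96.9% for Ccr7+ against Xcr1+ (14266), 72.1% for pDC-like against Xcr1+ (14281) and 94% for cycling against resting cells (12645). For genes changed 1.5-fold the shares were 16.1%, 27.9%, 29.5%, 23.4% and 67.2% in the same order. The simulation gave every gene the same spread and changed genes drawn from all levels. These shares therefore do not describe the abundant ribosomal protein genes.

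Genes named are every paralog, the stalk, 5S particle and fusion genes, Rpsa and Rack1, the largest called changes in each direction, the members farthest from the family's median, the 2 largest in each companion list, and the 3 highest and 3 lowest levels; not every gene the rule gives is described. Exact intervals cover counting error only. Alternatives were another normalization (DESeq2, plain totals, scaling on genes other than ribosomal protein genes), a stricter mitochondrial limit, a looser cycling gate, no low-count filter, no block, another resolution, doublet removal, other variable genes, and each library left out. Results for some named genes are not reported here.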

Additional observations from a re-analysis of the deposited data

Results flagged for a closer look

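In 4 cases the log2 ratio of plain CPM + 1 between classes had one sign in MAFIA replicate 2 and the other in both Cd11cYFP libraries. The difference between reporters was not tested. Rps6 in Timd4+ against Cx3cr1+ macrophage-like cells had 0.25 in MAFIA replicate 2, against -0.32 and -0.37 in the Cd11cYFP libraries. Rpl39l in pDC-like against Xcr1+ DC-like cells had 0.27, against -0.27 and -0.46, from 3 UMIs in all pDC-like cells. The retrogene Rps3a2 had -0.20 in pDC-like against Xcr1+ DC-like cells, where the Cd11cYFP libraries had 0.49 and 0.19. In cycling against resting Xcr1+ cells Rps3a2 had 0.40, against -0.11 and -0.13.

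MAFIA replicate 1, which entered no comparison between classes, had a canonical ribosomal protein share of 23.5% of UMIs in its kept cells, against 18.5% in MAFIA replicate 2 and 21.2% and 21.3% in the Cd11cYFP libraries.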

How the results depend on the processing

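The counts of canonical genes called lower in Timd4+ against Cx3cr1+ and in Cx3cr1+ against monocyte-like cells stayed within 1.5 times of 74 and 76 under every alternative run. The count higher in Ccr7+ against Xcr1+ DC-like cells was 7, and became 3 with plain UMI totals, 3 without the low-count filter, 4 with Xcr1+ cells of 0 proliferation UMIs only, and 3 to 7 with each library left out, where the count lower ranged from 30 to 58. In pDC-like against Xcr1+ DC-like cells the count higher was 2 with DESeq2, 4 with plain totals and 2 with variable genes of all kinds, and the count lower was 45 with plain totals. In cycling against resting cells the count lower ranged from 22 to 63 with each library left out.

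Without the replicate block (library as the pairing) the calls were 65 lower in both macrophage comparisons, 2 higher and 36 lower in Ccr7+, 1 higher and 65 lower in pDC-like, and 0 higher and 4 lower in cycling cells.

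Taken as the median over cells, the canonical share was 30.7% in B cell-like, 16.8% in Ccr7+ DC-like and 7.70% in Timd4+ macrophage-like cells, and without mitochondrial UMIs it was 30.8% in B cell-like cells. Plain totals moved the median of all genes to 0.16, 0.14, -0.05, 0.34 and 0.03 (log2) in the 5 comparisons, and that of the canonical genes to -0.39, -0.56, -0.39, -0.22 and -0.11. Of single-gene values, 84 lost a call, 21 gained one and 3 turned: Rpl21 in Timd4+ against Cx3cr1+ cells (0.013, plain totals), Rpl10 in pDC-like cells (0.24, plain totals) and Rps27 in pDC-like cells (-0.048, Xcr1+ cells of 0 proliferation UMIs only). The causes were not tested. Plain totals and the 0-proliferation cells were chosen after seeing the data. Depth limits Rpl3l, Rpl39l and the retrogenes, which had few UMIs per class.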
